A study of Homo sapiens with 9 samples.

Results

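The 8 genes described here carry out or govern the synthesis and breakdown of polyamines: ODC1, AMD1, SRM and SMS make them, OAZ1, OAZ2 and AZIN1 regulate the first of these enzymes, and SAT1 starts their breakdown. They were taken by gene symbol from the probe annotation and were read by 15 probe sets, out of 11963 genes and 22215 probe sets tested on the array. A further probe set, shared by SAT1 and another gene, was left out. The set was selected on differences of some of its genes between these groups, in the same log2 values, so their counts are descriptions and are not read as evidence for the pathway.

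Polyamines (putrescine, spermidine and spermine) are small, positively charged molecules that bind nucleic acids and are needed for growth, and their synthesis is often raised in tumours, gliomas among them. Ornithine decarboxylase, the product of ODC1, makes putrescine. Spermidine and spermine are built from it with aminopropyl groups from decarboxylated S-adenosylmethionine. The cell adjusts the pathway largely after transcription: polyamines promote translation of antizyme, antizyme sends ornithine decarboxylase to the proteasome and limits polyamine uptake, and antizyme inhibitor, itself a relative of ornithine decarboxylase without its activity, binds antizyme and relieves the enzyme. WT1 has been reported to act on the ODC1 promoter in other cells.

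Transcript levels came from 9 Affymetrix arrays. The cells were U251 (U251MG), a human glioma cell line in long use, and each of 3 groups had 3 cultures. All cultures received the transfection reagent Oligofectamine: 1 group with an siRNA against WT1, 1 with a non-targeting (scrambled) siRNA and 1 with no siRNA, and each siRNA was applied at 100 nM. The transfection time was 4 h for all 9 cultures. The series calls the arrays biological triplicates and the cells were plated in triplicate wells, but no source used here says whether the numbers 1 to 3 mark separate days. All cells were of 1 line and 1 siRNA product was used against WT1.

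Values are log2 expression after RMA (robust multi-array average), and array medians lay between 6.447 and 6.535. Arrays that carried the same replicate number went together, so each comparison was made within replicate numbers with limma, over all 22215 probe sets, and an adjusted p under 0.05 counts as a change. SE is the standard error of that fit, SD the spread of the 3 cultures of a group, and n = 3 per group throughout. The comparisons share arrays, so a value in one is not independent of the value in another. WT1 itself was dim. At its brighter probe set the levels were 4.76, 5.09 and 4.82 with the WT1 siRNA, 5.59, 5.89 and 5.41 with scrambled siRNA and 6.05, 6.58 and 5.89 with reagent. The difference from scrambled siRNA was −0.74 (limma adjusted p = 0.00336). That from the reagent group was −1.29 (adjusted p = 0.000619), and scrambled siRNA was itself below reagent (−0.55, adjusted p = 0.0164). The levels of all 3 groups, controls included, lay within the means of markers of cell types that the line should not hold, given below. They were not shown to be above background in any group, so these differences do not give the share of WT1 RNA that was left. The dimmer probe set passed in neither comparison (adjusted p = 0.42 and 0.516). Without the replicate number in the fit the WT1 differences did not pass (adjusted p = 0.672, 0.394 and 1.0). Of the 6 markers of a glioma line of astrocytic kind, VIM (mean 13.66), CD44 (13.09) and NES (9.18) were bright, GFAP ranged from 5.36 to 9.25 and S100B was dim (mean 4.83). The remaining marker, the glutamate transporter SLC1A3 (mean 8.27), was called: it was lower with the WT1 siRNA than with scrambled siRNA (−0.70, adjusted p = 0.000859), higher with scrambled siRNA than with reagent (0.49, adjusted p = 0.00641) and not called against reagent (−0.22, adjusted p = 0.108). Without the replicate number in the fit none of these passed (adjusted p = 0.512, 1.0 and 1.0). Each marker was read at its brightest probe set, and there the other 5 were not called. A dimmer probe set of CD44 did pass: it was higher with the WT1 siRNA than with scrambled siRNA. That probe set passed neither against reagent nor between the controls. The 9 measured markers of neurons, oligodendrocytes, leukocytes and endothelium had means of 4.35 to 6.76, and limma called 0 of them in any comparison.

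With the WT1 siRNA, SAT1, which acetylates spermidine and spermine for breakdown or export, was higher at 1 of its 3 probe sets against both controls, by 1.32-fold against scrambled siRNA and 1.41-fold against reagent. AZIN1, the antizyme inhibitor, fell at 2 of its 3 probe sets against scrambled siRNA, to 77.2% and 71.3%. OAZ1, the main antizyme, was lower by 0.21 to 0.29 on the log2 scale at both probe sets against both controls and did not pass. The synthetic enzymes ODC1, AMD1, SRM and SMS and the second antizyme gene OAZ2 were not called in any comparison. In the bulk RNA of a culture a change in some of its cells and a change in the RNA of every cell cannot be told apart.

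**Figure D1:**
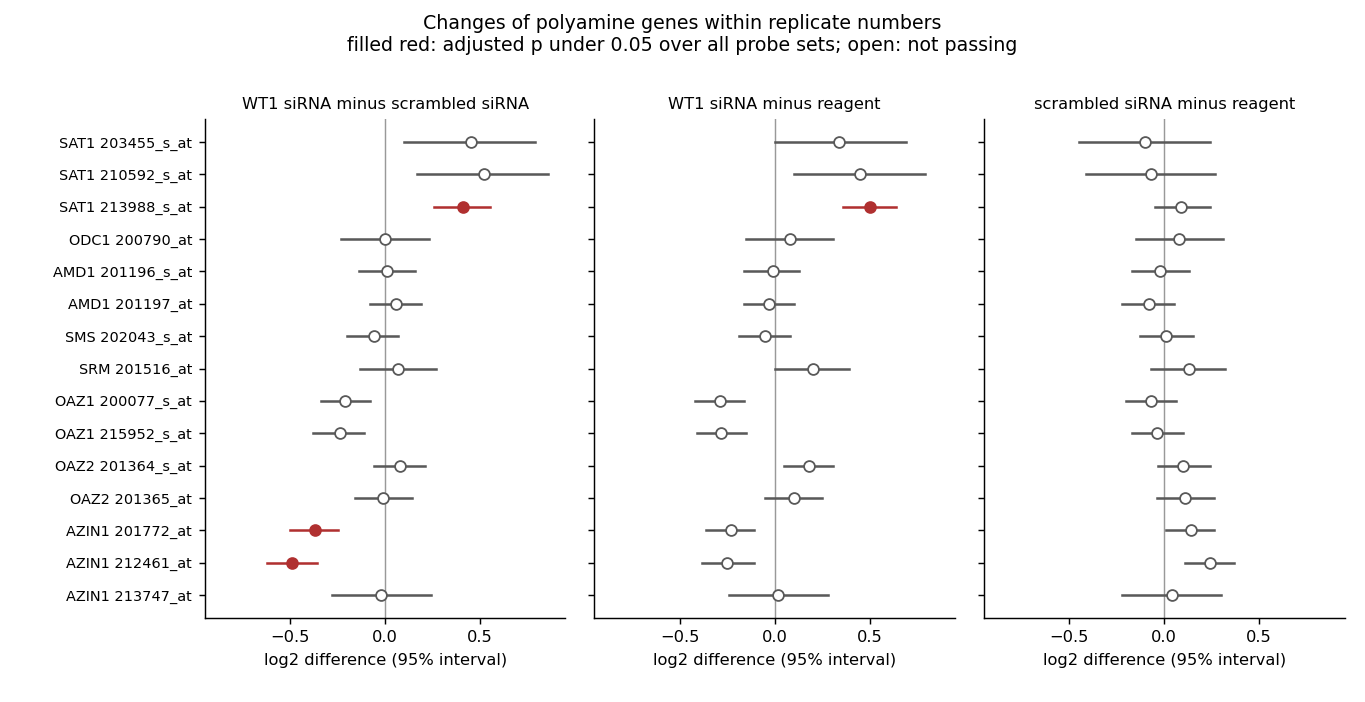
Log2 differences of the 15 probe sets (points) in the 3 comparisons with their 95% intervals from the fit with replicate numbers as a block (horizontal axis, log2 units). Filled red points passed at an adjusted p under 0.05: SAT1 213988_s_at in both comparisons with the WT1 siRNA and AZIN1 201772_at and 212461_at against scrambled siRNA.

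Against scrambled siRNA 3 of the 15 probe sets were called, 1 higher and 2 lower, where 3.27% of all probe sets were called (1.33% higher and 1.94% lower). Against reagent 1 of 15 was called, higher, where 1.25% of all probe sets were called (0.41% higher and 0.837% lower). Between scrambled siRNA and reagent limma called 0 of 15, with 2 at an unadjusted p under 0.05, where 1.09% of all probe sets were called (0.554% higher and 0.536% lower). Nothing is read from these shares, since the members were chosen with results of the same comparisons in view. The median change of the 15 was 0.00, 0.02 and 0.04 in the 3 comparisons, against 0.00, 0.01 and 0.01 over all probe sets. Without the replicate number in the fit 0 of 15 passed in each comparison (4, 4 and 1 at an unadjusted p under 0.05), where 4, 0 and 1 of all probe sets passed.

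The promoters of 7 of the 8 members were taken from a RefSeq table (GRCh38.p14). They made up 10 entries, since ODC1 had 2 annotated starts and AMD1 had 3. AZIN1 was left out before the search, so the motif counts below do not cover it. Whether its promoter holds these motifs was not tested. The 250 bases before each start were searched on both strands for CACGTG (the E-box of MYC and MAX), GCGGGGGCG and GCGTGGGAG (motifs of WT1), GGGCGG (SP1) and TGACTCA (AP-1). Of the promoters shown, those of ODC1 and SRM belong to synthetic enzymes and hold GCGGGGGCG, and those of SAT1 and OAZ1 belong to the breakdown enzyme that was called and to the antizyme with the most even differences. For ODC1 only 1 of its 2 starts is shown, and the window of that start lies downstream of the other annotated start. Capitals mark every match to these motifs, and each sequence is written 5′ to 3′ on the gene's strand and ends 1 base before the start.
ODC1, chr2:10448013-10448262, minus strand: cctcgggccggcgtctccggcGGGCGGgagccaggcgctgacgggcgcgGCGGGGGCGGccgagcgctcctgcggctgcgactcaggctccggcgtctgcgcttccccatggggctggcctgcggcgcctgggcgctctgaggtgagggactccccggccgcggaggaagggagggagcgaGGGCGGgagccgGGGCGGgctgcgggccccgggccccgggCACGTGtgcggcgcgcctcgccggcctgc
SRM, chr1:11060019-11060268, minus strand: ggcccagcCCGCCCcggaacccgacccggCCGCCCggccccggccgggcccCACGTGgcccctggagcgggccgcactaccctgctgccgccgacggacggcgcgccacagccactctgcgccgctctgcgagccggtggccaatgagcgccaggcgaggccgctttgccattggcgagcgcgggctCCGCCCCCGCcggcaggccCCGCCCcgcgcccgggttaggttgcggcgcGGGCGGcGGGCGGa
SAT1, chrX:23782923-23783172, plus strand: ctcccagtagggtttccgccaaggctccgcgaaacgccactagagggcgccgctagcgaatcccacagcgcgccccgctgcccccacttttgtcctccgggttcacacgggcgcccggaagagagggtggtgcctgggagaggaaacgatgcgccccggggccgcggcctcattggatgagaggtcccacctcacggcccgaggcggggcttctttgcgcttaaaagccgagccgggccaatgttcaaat
OAZ1, chr19:2269236-2269485, plus strand: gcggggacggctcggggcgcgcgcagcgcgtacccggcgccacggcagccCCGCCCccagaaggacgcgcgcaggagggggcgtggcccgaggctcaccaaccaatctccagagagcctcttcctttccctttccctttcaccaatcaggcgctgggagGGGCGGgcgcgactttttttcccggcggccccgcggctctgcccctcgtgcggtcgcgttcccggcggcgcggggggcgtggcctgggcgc

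For AMD1, 2 of the 3 entries hold nearly the same sequence, so the 10 entries are not all distinct. By gene, GCGGGGGCG was in 4 of the 7 members searched and GGGCGG in 6 of 7. GCGGGGGCG was present in 4 of the 10 entries, against 4.72% of all 35116 promoter entries and 6.09% of the 22199 of protein-coding genes. The entries belong to ODC1 (1 of its 2 starts), AMD1 (1 of 3), SMS and SRM. These 4 are the synthetic enzymes of the group, and each match overlapped a GGGCGG match. None of these 4 genes was called in any comparison. The shares over all entries are not matched for base content, and whether WT1 acts on these genes was not tested. In ODC1 it lay 201 to 193 bases before the start, in SRM 62 to 54, in SMS 45 to 37 and in AMD1 44 to 36. GCGTGGGAG was in 0 of 10 entries, against 0.592% of all entries and 0.703% of protein-coding ones. CACGTG was in 2 of 10 (6.34% and 7.37%): in ODC1, 29 to 24 bases before 1 of its 2 starts, and in SRM, 199 to 194 bases before the start. That ODC1 entry is also the one with GCGGGGGCG, and the window of the other ODC1 start held neither motif. GGGCGG was in 9 of 10, all but SAT1 (42.6% and 53.7%), and TGACTCA in 1 of 10, that of OAZ2 (4.2% and 3.45%). The SAT1 window held none of the 5 motifs. A match is a string of letters and does not show that a factor is bound there.

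ODC1, the first and usually limiting enzyme, was brighter than at least 98.3% of probe sets on every array. Its levels were 11.86, 12.52 and 12.36 with the WT1 siRNA, 12.22, 12.34 and 12.18 with scrambled siRNA and 12.06, 12.30 and 12.14 with reagent (replicate numbers 1, 2 and 3). The culture of number 1 with the WT1 siRNA was the lowest of all 9 and those of numbers 2 and 3 were the highest and second highest, so the groups overlapped. Within numbers the difference from scrambled siRNA was −0.36, 0.18 and 0.19, with a mean of 0.00 (SE 0.102, 95% interval −0.23 to 0.23, limma adjusted p = 0.996). Against reagent the differences were −0.20, 0.22 and 0.22, with a mean of 0.08 (95% interval −0.15 to 0.31, adjusted p = 0.762).

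AMD1 makes the decarboxylated S-adenosylmethionine that donates the aminopropyl group. Its brighter probe set 201197_at had 10.40, 10.35 and 10.33 with the WT1 siRNA, 10.43, 10.27 and 10.22 with scrambled siRNA and 10.44, 10.40 and 10.33 with reagent. All 9 arrays lay within 10.22 to 10.44, with differences of 0.06 against scrambled siRNA (95% interval −0.08 to 0.19) and −0.03 against reagent (−0.16 to 0.10). The other, 201196_s_at, differed by 0.01 (−0.14 to 0.16) and −0.01 (−0.16 to 0.13). The smallest limma adjusted p of either probe set in the 3 comparisons was 0.657.

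SRM, spermidine synthase, had levels of 9.54, 9.77 and 10.47 with the WT1 siRNA, 9.66, 9.51 and 10.41 with scrambled siRNA and 9.60, 9.47 and 10.12 with reagent. The 3 cultures of number 3 were higher than all 6 others, and within numbers the WT1 siRNA culture was above reagent in numbers 2 and 3 (0.30 and 0.34) and below it in number 1 (−0.05). The mean differences were 0.07 against scrambled siRNA (95% interval −0.13 to 0.27, limma adjusted p = 0.782) and 0.20 against reagent (SE 0.0879, adjusted p = 0.336). SMS, spermine synthase, lay between 11.49 and 11.76 on all arrays. It differed by −0.06 against scrambled siRNA (95% interval −0.20 to 0.07) and −0.05 against reagent (−0.19 to 0.08), with adjusted p = 0.703 and 0.737.

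**Figure D2:**
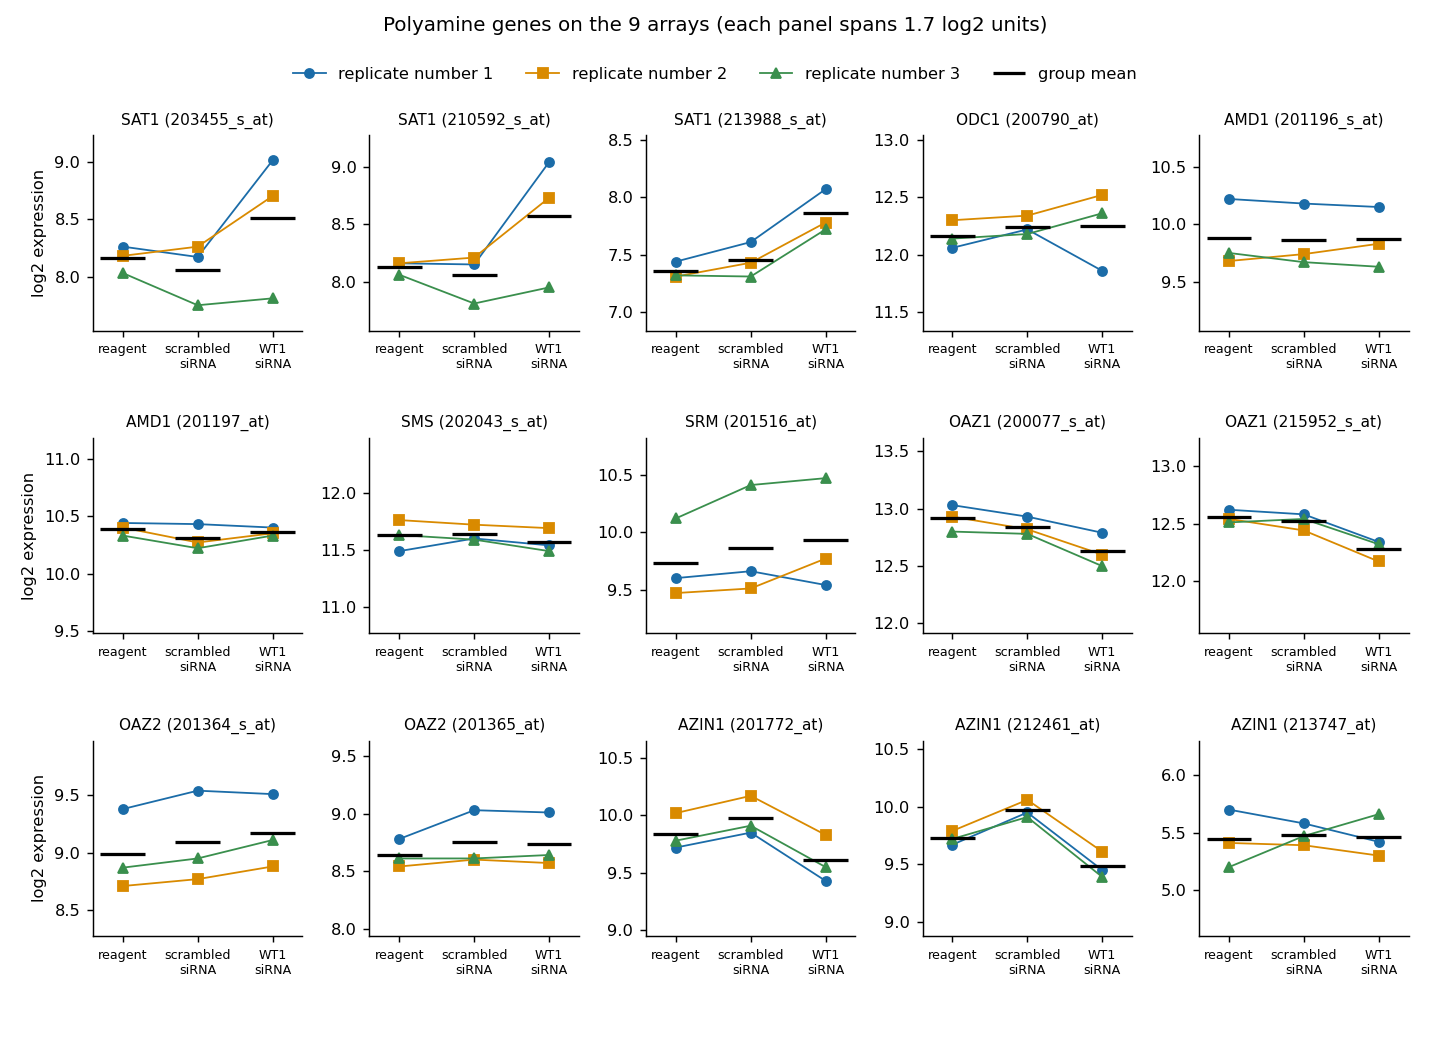
Log2 expression (vertical axis, every panel 1.7 units tall) of the 15 probe sets on each array, by group; coloured lines join the cultures of 1 replicate number and black bars are group means. Group means with the WT1 siRNA are the highest for SAT1 and the lowest for OAZ1 and AZIN1 (201772_at and 212461_at), while AMD1 201196_s_at, SRM and OAZ2 differ mainly between numbers.

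OAZ1 encodes antizyme, which binds ornithine decarboxylase and delivers it to the proteasome. Its probe set 215952_s_at had 12.34, 12.17 and 12.32 with the WT1 siRNA, 12.58, 12.44 and 12.54 with scrambled siRNA and 12.62, 12.54 and 12.51 with reagent. All 3 cultures with the WT1 siRNA were below all 6 control cultures, which overlapped each other. The difference was −0.24 against scrambled siRNA (SE 0.0593, 95% interval −0.38 to −0.11, limma adjusted p = 0.0619) and −0.28 against reagent (−0.41 to −0.15, adjusted p = 0.0598). At 200077_s_at the levels were 12.79, 12.60 and 12.50, against 12.93, 12.82 and 12.78 with scrambled siRNA and 13.03, 12.93 and 12.80 with reagent. Here the groups overlapped against scrambled siRNA (−0.21, SE 0.0577, adjusted p = 0.0868) and not against reagent (−0.29, adjusted p = 0.0513). The 12 differences within numbers, over both probe sets and both controls, ran from −0.37 to −0.14, so every pair had the lower level with the WT1 siRNA. They reuse the same 3 cultures with the WT1 siRNA, and the 2 probe sets varied together (Pearson r = 0.958 with number means taken off). They are therefore not 12 independent values. Same-sign differences in 3 of 3 numbers were found in 35.1% of all probe sets against scrambled siRNA and 33.4% against reagent.

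The OAZ1 values did not pass as fitted, but lay near the threshold: with a mean-variance trend all 4 passed (adjusted p from 0.000968 to 0.00374), and after centring each array on its median 3 of the 4 passed (0.0366 to 0.0461). Without the replicate number in the fit none of the 4 passed (adjusted p = 1.0 each).

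OAZ2, a second antizyme, had 9.51, 8.88 and 9.11 at its brighter probe set 201364_s_at with the WT1 siRNA, 9.54, 8.77 and 8.95 with scrambled siRNA and 9.38, 8.71 and 8.87 with reagent. It was above reagent in 3 of 3 numbers by 0.13, 0.17 and 0.23 (mean 0.18, SE 0.0599, limma adjusted p = 0.195). Against scrambled siRNA the mean was 0.08 (95% interval −0.06 to 0.21, adjusted p = 0.602). The other probe set, 201365_at, had −0.01 and 0.10 in these comparisons. The antizyme genes therefore had mean differences of opposite sign against reagent, but none of them passed and the difference between OAZ1 and OAZ2 was not tested.

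AZIN1, which frees ornithine decarboxylase from antizyme, fell against scrambled siRNA. At 212461_at the levels were 9.45, 9.61 and 9.39 with the WT1 siRNA, 9.95, 10.06 and 9.91 with scrambled siRNA and 9.67, 9.79 and 9.72 with reagent. The 3 groups did not overlap: scrambled siRNA was highest, reagent intermediate and the WT1 siRNA lowest. At 201772_at the levels were 9.43, 9.83 and 9.55, against 9.85, 10.17 and 9.91 with scrambled siRNA and 9.72, 10.02 and 9.78 with reagent. The WT1 siRNA cultures were below every scrambled siRNA culture there and overlapped those with reagent. The remaining probe set, 213747_at, was dim, at 5.20 to 5.70, and showed a difference of −0.02 (limma adjusted p = 0.961).

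The fall against scrambled siRNA was −0.49 at 212461_at (SE 0.0582, limma adjusted p = 0.00445; −0.50, −0.44 and −0.53 within numbers) and −0.37 at 201772_at (SE 0.0559, adjusted p = 0.00943; −0.42, −0.34 and −0.36). Against reagent the differences were smaller, −0.25 (adjusted p = 0.0846) and −0.23 (adjusted p = 0.0851), and did not pass. The scrambled siRNA group was itself above reagent in 3 of 3 numbers at both probe sets, by 0.24 (adjusted p = 0.0949) and 0.14 (adjusted p = 0.368), which did not pass either. Without the replicate number in the fit the probe sets did not pass against scrambled siRNA (adjusted p = 0.237 and 1.0). The call at 212461_at was also lost without the 3 arrays of number 2 (0.116). That at 201772_at was lost without number 1 (0.0607), 2 (0.198) or 3 (0.0511) and without scrambled siRNA replicate 1 (0.0563) or 2 (0.0793).

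SAT1, spermidine and spermine acetyltransferase, was read by 3 probe sets that differed in how even the change was. At 213988_s_at the levels were 8.07, 7.78 and 7.72 with the WT1 siRNA, 7.61, 7.43 and 7.31 with scrambled siRNA and 7.44, 7.31 and 7.32 with reagent. All 3 cultures with the WT1 siRNA were above all 6 controls, and the control groups overlapped. The rise was 0.41 against scrambled siRNA (SE 0.064, limma adjusted p = 0.012; 0.46, 0.35 and 0.40 within numbers) and 0.50 against reagent (adjusted p = 0.00983; 0.63, 0.47 and 0.40).

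The brighter probe sets of SAT1 varied together (Pearson r = 0.99 over the 9 arrays with number means taken off, a description) and did not pass. At 210592_s_at the levels were 9.04, 8.73 and 7.95 with the WT1 siRNA, 8.15, 8.21 and 7.81 with scrambled siRNA and 8.16, 8.16 and 8.06 with reagent. The WT1 siRNA culture of number 3 lay among the controls, while those of numbers 1 and 2 were above every control. The differences within numbers were 0.90, 0.51 and 0.14 against scrambled siRNA (mean 0.52, SE 0.152, limma adjusted p = 0.114) and 0.89, 0.57 and −0.12 against reagent (mean 0.45, adjusted p = 0.204). At 203455_s_at they were 0.84, 0.43 and 0.06 (mean 0.45, adjusted p = 0.176) and 0.75, 0.51 and −0.23 (mean 0.34, adjusted p = 0.333). Without the WT1 siRNA array of number 3 both probe sets passed against scrambled siRNA (0.75 and 0.69, adjusted p = 0.00989 and 0.0142) and against reagent (0.68 and 0.58, adjusted p = 0.0288 and 0.0483). On that array the 3' minus 5' difference of the actin control, a sign of RNA integrity, was 0.26, against 0.46 with scrambled siRNA and 0.50 with reagent in the same number, while that of GAPDH was 0.11, against 0.10 and 0.10. Its part in the SAT1 values was not tested.

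For SAT1 213988_s_at the fit without replicate numbers gave adjusted p = 0.79 and 0.88. The call against scrambled siRNA was lost without any of scrambled siRNA replicates 1 (0.0594), 2 (0.077) and 3 (0.0682) or WT1 siRNA replicate 2 (0.0525), and without number 1 (0.0554) or 2 (0.198). The call against reagent was lost without WT1 siRNA replicate 2 (0.055), reagent replicate 2 (0.0926) or number 2 (0.223), and with the 2 groups fitted alone (0.0697).

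**Figure D3:**
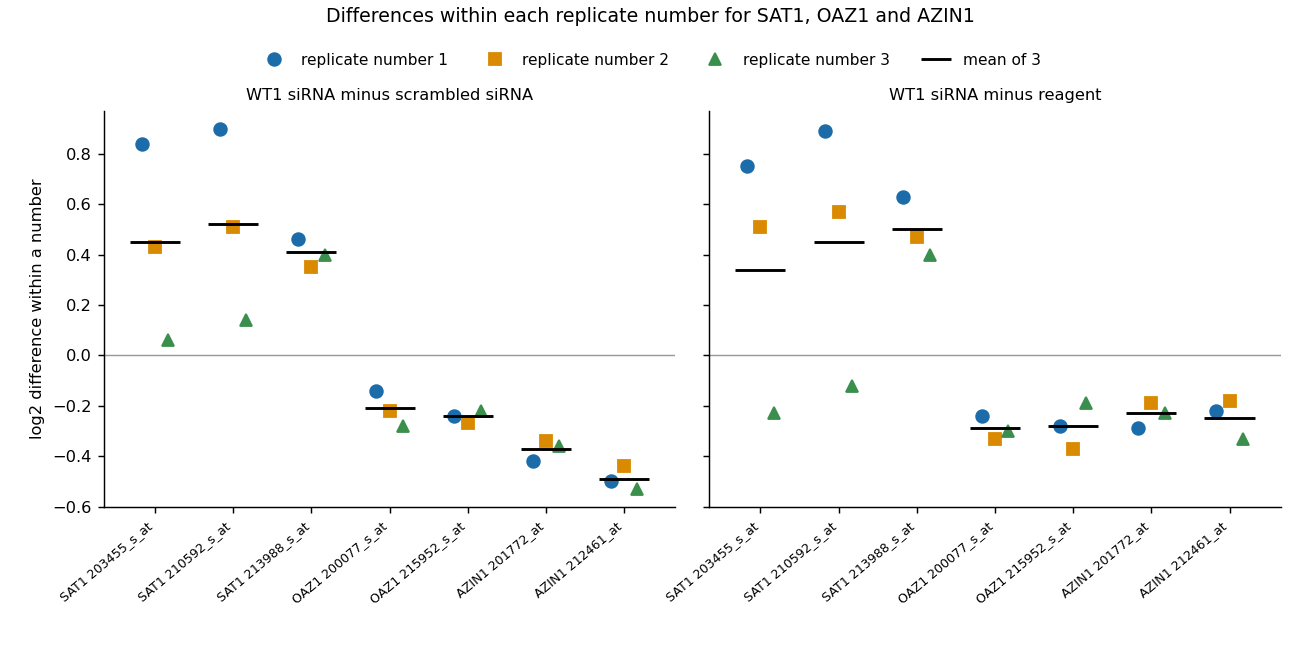
Log2 differences within each replicate number (points; vertical axis) and their mean (bars) for SAT1, OAZ1 and the brighter AZIN1 probe sets. Points of numbers 1 to 3 lie close together for OAZ1, AZIN1 and SAT1 213988_s_at, while at the other SAT1 probe sets number 3 lies at 0.06 and 0.14 against scrambled siRNA and at −0.23 and −0.12 against reagent.

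Over the members, 4 of 15 probe sets had groups that did not overlap against scrambled siRNA (6.67% of all probe sets), 4 of 15 against reagent (5.5%) and 1 of 15 between scrambled siRNA and reagent (5.26%). They were SAT1 213988_s_at, OAZ1 215952_s_at and AZIN1 212461_at in both comparisons with the WT1 siRNA, AZIN1 201772_at against scrambled siRNA and OAZ1 200077_s_at against reagent. Between scrambled siRNA and reagent it was AZIN1 212461_at.

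The replicate number set more of the level than the treatment did for 9 of the 15 probe sets, and for 80.3% of all probe sets. The members were chosen with group differences in view, so nothing is read from this contrast. The share of the replicate number in the sum of squares ran from 9.59% (AZIN1 212461_at) to 95.3% (AMD1 201196_s_at). SRM averaged 9.60, 9.58 and 10.33 in numbers 1, 2 and 3, a range of 0.75, while its group means spanned 0.20. OAZ2 201364_s_at averaged 9.48, 8.78 and 8.98, and AMD1 201196_s_at averaged 10.18, 9.75 and 9.68, where the other AMD1 probe set spanned only 0.13. The 6 probe sets with more between groups were those of OAZ1, AZIN1 (201772_at and 212461_at) and SAT1 (210592_s_at and 213988_s_at). At SAT1 210592_s_at the shares were close, 39.0% between groups and 37.1% between numbers. The 3' minus 5' difference of the actin control differed between numbers too: 0.05 to 0.09 in number 1, 0.55 to 0.68 in number 2 and 0.26 to 0.50 in number 3, where the WT1 siRNA array had the 0.26. Its part in these levels was not tested.

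**Figure D4:**
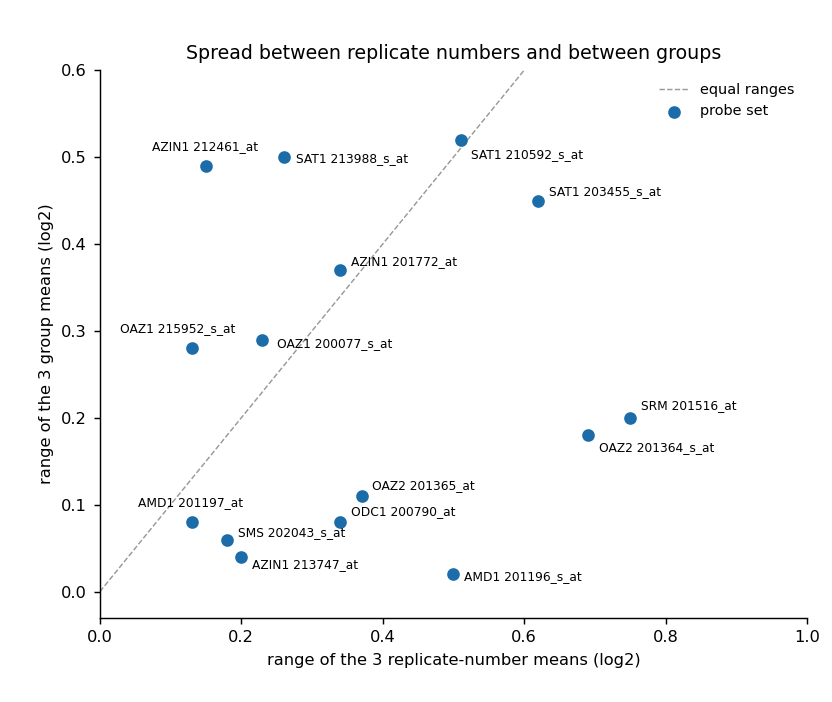
Range of the 3 replicate-number means (horizontal axis, log2) against the range of the 3 group means (vertical axis, log2) for each of the 15 probe sets, with a dashed line of equal ranges. SRM, OAZ2 and AMD1 201196_s_at lie far below the line, and AZIN1 212461_at and SAT1 213988_s_at far above it.

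Around the core pathway, 6 lists of related genes were counted, each gene by its brightest probe set; without WT1, 43 of their 51 genes were measured. Against scrambled siRNA 2 rose and 2 fell (9.3% of the 43, where 3.7% of all genes were called, 1.39% higher and 2.32% lower), and their median change was 0.01. Against reagent and between the controls limma called 0 of 43 (7 in each at an unadjusted p under 0.05), where 1.4% (0.376% higher and 1.02% lower) and 1.21% (0.644% higher and 0.568% lower) of all genes were called. Without replicate numbers in the fit 0 of 43 were called in any comparison. The lists were chosen with earlier results of these data known, so nothing is read from these shares.

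ATP13A3, a transporter of the endosomal and plasma membrane reported to carry polyamines, fell against scrambled siRNA. Its levels were 8.76, 9.62 and 9.34 with the WT1 siRNA, 9.50, 10.19 and 9.86 with scrambled siRNA and 9.17, 9.78 and 9.63 with reagent. The difference from scrambled siRNA was −0.61 (SE 0.0675, limma adjusted p = 0.00336), lower in 3 of 3 numbers, and a second probe set had −0.37 (adjusted p = 0.0223). Against reagent it was −0.29 (adjusted p = 0.0842), and scrambled siRNA was above reagent by 0.33 (adjusted p = 0.0597). As for AZIN1 and SLC1A3, the mean was highest with scrambled siRNA and lowest with the WT1 siRNA. ATP13A3 was the only call among 7 measured transport genes. Its call did not hold without the replicate number in the fit (adjusted p = 1.0) or without number 2 (0.0881).

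Of the 10 genes of arginine and ornithine supply, ASL, which releases arginine from argininosuccinate, rose against scrambled siRNA (0.29, limma adjusted p = 0.0476) and GATM, which uses arginine to begin creatine synthesis, fell (−0.39, adjusted p = 0.0255; −0.46 and 0.0461 at its other probe set). Of 11 measured genes of the methionine and methylthioadenosine cycle, ADI1, an enzyme that returns the sulphur left over from polyamine synthesis to methionine, rose (0.30, adjusted p = 0.0315). Its levels were 9.63, 9.62 and 9.59 with the WT1 siRNA, 9.32, 9.27 and 9.35 with scrambled siRNA and 9.71, 9.54 and 9.57 with reagent, so it was the scrambled siRNA group that stood apart. Against reagent ADI1 differed by 0.01 (adjusted p = 0.969), ASL by 0.08 (0.613) and GATM by −0.26 (0.129). None of these 3 passed against scrambled siRNA without the replicate number in the fit (adjusted p of 0.543 to 1.0). ASL passed in 3 of 20 alternatives to the fit, ADI1 in 8 and GATM in 10, and all 3 were lost, for example, without number 2 (0.422, 0.345 and 0.338).

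In the other lists no gene but WT1 passed. Of 5 measured further polyamine enzymes and regulators limma called 0 in any comparison (1, 0 and 0 at an unadjusted p under 0.05). SMOX, spermine oxidase, had the smallest p, with levels of 7.74, 7.50 and 7.97 with the WT1 siRNA, 7.51, 7.32 and 7.51 with scrambled siRNA and 7.81, 7.47 and 7.60 with reagent (0.29 and 0.11 against the controls, adjusted p = 0.111 and 0.603). OAZ3, the testis antizyme, was dim at 5.04 to 5.51 (−0.12 against scrambled siRNA, adjusted p = 0.521). Of the 4 genes of the hypusine pathway, in which spermidine is used to modify the translation factor eIF5A, limma called 0 (2, 1 and 0 at an unadjusted p under 0.05). EIF5A2 (−0.24 and −0.22, adjusted p = 0.117 and 0.183) and DOHH (−0.18 and −0.14, adjusted p = 0.305 and 0.44) had the smallest p. Of 6 measured transcription factors besides WT1, limma called 0 (1 at an unadjusted p under 0.05 in each comparison). MXI1, a partner of MAX that opposes MYC and named here after its values were seen, differed by 0.33 and 0.28 (adjusted p = 0.0651 and 0.146).

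**Figure D5:**
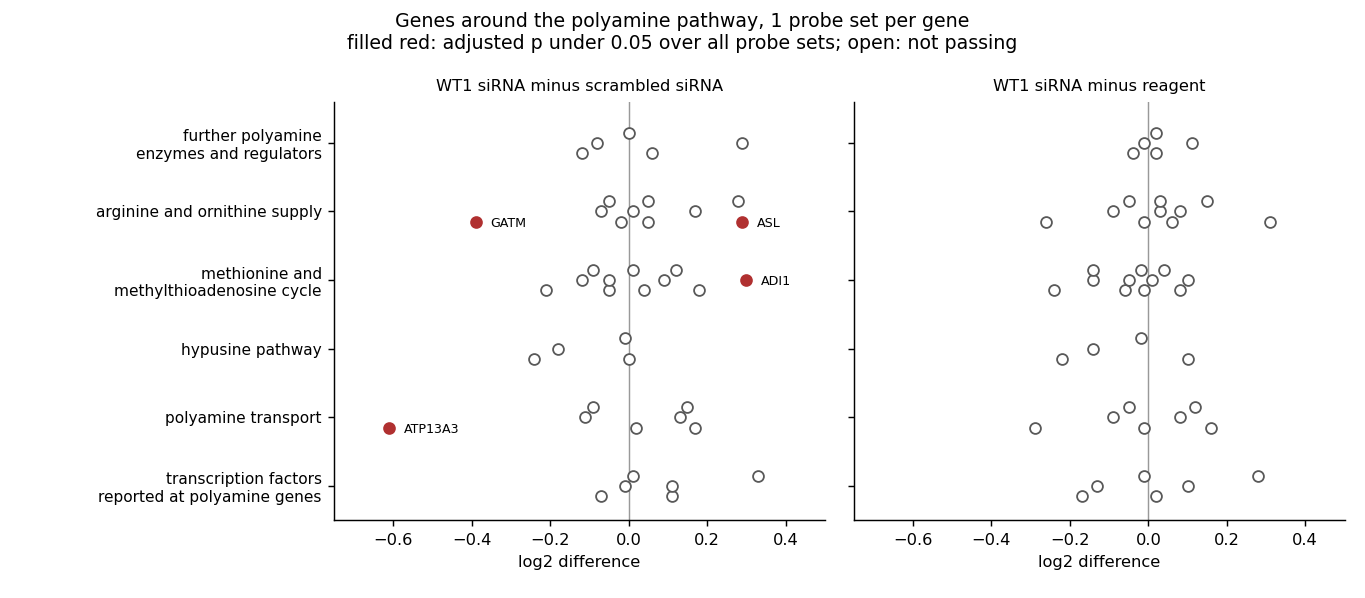
Log2 differences (horizontal axis) of the 43 measured genes of the 6 lists, 1 point per gene by its brightest probe set, for the WT1 siRNA against scrambled siRNA (left) and against reagent (right); WT1 is not drawn. Filled red points passed: ATP13A3, GATM, ASL and ADI1 on the left and 0 on the right.

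The genes whose pattern was most like that of SAT1 and AZIN1, each at its brightest probe set, were found among 6801 other genes at or above the median level, by Pearson correlation over the 9 arrays with the mean of each number taken off. For SAT1 that probe set, 210592_s_at, was not called in any comparison: its differences were large in numbers 1 and 2 and small in number 3, and it correlated with the called 213988_s_at at 0.83, so the genes below describe the uncalled pattern. This is a description, since the arrays share 3 treatments and RMA normalisation. For SAT1 (210592_s_at) they were DLG5 (r = 0.968), TEAD1 (0.962), CCNG2 (0.961) and OSBPL8 (0.958). For AZIN1 (201772_at) they were MTMR1 (0.993), INPP5A (0.990), NOL7 (0.987) and AAAS (0.985). With number means kept, the correlations ran from −0.150 to 0.802 for SAT1 and from −0.455 to 0.986 for AZIN1. Within numbers AZIN1 (201772_at) went with OAZ1 (r = 0.769) and against SAT1 (r = −0.794), and neither followed ODC1 (0.042 for AZIN1 and −0.315 for SAT1).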

How the data were processed

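RNA of the 9 cultures was hybridised to Affymetrix arrays. The authors deposited log2 values for each probe set, made with RMA per the submitters' processing notes. No source used here gives the software version, chip definition or genome build. Of 22277 probe sets, 62 controls were left out, and 22215 were tested: 19064 with 1 gene symbol, 1043 with several and 2108 with none. Symbols came from the platform annotation, looked up again by gene ID (19052 probe sets, 0 changed). Groups and replicate numbers came from the sample titles.

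Linear models with group and replicate number were fitted to all 9 arrays with limma 3.58.1 in R 4.3.3 (eBayes, two-sided, Benjamini-Hochberg over all probe sets). The number was kept as a block because the comparisons of these genes are defined as paired by number, and because same-numbered arrays went together. Over the 9 same-numbered pairs of arrays in different groups, deviations from their group means correlated at 0.647 to 0.849. For other pairs the values were −0.611 to −0.0311. Deviations cancel within a group, so positive values for same-numbered pairs force negative ones on balance elsewhere. The negative values are therefore not separate evidence. P-values measure the spread between cultures within numbers; the number of arrays limits the precision. The procedure was tested on simulated data.

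The members and lists were chosen with earlier results of these data known. All member probe sets are named; in each list the genes called, up to 4, or else the 2 with the smallest p; and the 4 genes most like each member gene with a call, taken at that gene's brightest probe set. Alternatives were the fit without the number or with it as a random effect, the 2 groups alone, median centring, a filter on dim probe sets, 1 probe set per gene, a variance trend, robust variance, and leaving out each array or number; the likeness with number means kept was added after seeing the data. Figures were drawn with matplotlib 3.10.9.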

Additional observations from a re-analysis of the deposited data

How the results depend on the processing

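Of 879 recomputed changes of the member probe sets, 795 kept their direction and their side of the threshold, 20 lost and 21 gained a call, and 43 changed sign without being called in either fit; none of these had a reported change above 0.10 in size. No called member value changed sign in any alternative. The 20 losses concern only the few values called as reported, so their share of all 879 does not measure how stable the calls were. SAT1 213988_s_at lost its call in 7 of 19 alternatives against scrambled siRNA and in 5 of 19 against reagent. Against scrambled siRNA AZIN1 201772_at lost it in 6 of 20 and 212461_at in 2 of 19. The counts depended on the fit. Without the replicate block, 4, 0 and 1 probe sets were called over the whole array (against scrambled siRNA, against reagent and between the controls, in this order throughout), with 0 members in all and 0 list genes. With the block as a random effect the counts were 356, 118 and 88. With only the 2 groups compared they were 390, 3 and 535, with 0 members against reagent, and 1 list gene against scrambled siRNA and 2 between the controls. With a variance trend 552 were called against reagent and 470 between the controls, with 6, 5 and 1 members, and 1 list gene against reagent and 3 between the controls. After centring 3 members were called against reagent, and 2 with dim probe sets left out. With 1 probe set per gene, which tests 8 member probe sets, 1 member was called against scrambled siRNA. Leaving out an array or a number gave 2 to 706, 0 to 465 and 3 to 387 calls over all probe sets, 0 to 5 members against scrambled siRNA and 0 to 3 against reagent, and 0 to 3, 0 to 2 and 0 to 1 list genes; the lowest counts over all probe sets came without number 2. The cause of these differences was not tested, except that leaving out arrays leaves fewer samples. With 3 cultures per group of 1 cell line, only RNA was measured, neither polyamines nor the largely post-transcriptional control of ODC1; the dim AZIN1 probe set 213747_at bounds its change only to −0.28 to 0.24 against scrambled siRNA.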
